A study of Mus musculus with 23 samples.

Results

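The genes of cholesterol and fatty acid synthesis were chosen as a list of 34 names, and 33 of them had values among the 11633 gene profiles tested. All 33 passed the filter on low values, which asked for 1 CPM (estimated counts scaled to a common library total) in at least 4 libraries. The CPM levels given below were scaled with TMM factors as well. The list held 5 regulators, 18 sterol synthesis enzymes, 8 fatty acid synthesis and modification enzymes with values, and 2 cholesterol exporters. ACACA, an enzyme that makes malonyl-CoA for fatty acid synthesis, was on the list and was not analysed here. The table names mouse genes by human symbols. ACAT2 and SCD each stood on 2 profiles, of which the higher was taken, and since mice carry several Scd genes it is uncertain which of them the SCD profile counts.

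Cells make cholesterol from acetyl-CoA through mevalonate, farnesyl diphosphate, squalene and lanosterol, and they make fatty acids from acetyl-CoA and malonyl-CoA on fatty acid synthase, FASN. Both routes are under the transcription factors SREBP1 (gene SREBF1) and SREBP2 (gene SREBF2), which SCAP carries out of the endoplasmic reticulum when sterols are low and which the INSIG proteins hold back when sterols are plentiful. When sterols are in excess, liver X receptors turn on the exporters ABCA1 and ABCG1. Dividing B cells build new membrane, and plasma cells also build the endoplasmic reticulum in which antibody is folded.

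The 23 libraries came from 2 sources. Tumors of IL6Myc transgenic mice gave 14 libraries that the labels call malignant plasma cells, 7 from mesenteric lymph nodes (MLN) and 7 from spleens of 8 mice, of which 6 gave both. Spleens of wild-type Balb/c mice gave 5 libraries of B cells that had been kept for 16 hours with LPS, a mitogen from bacterial walls, at 1 µg/ml, called activated, and 4 libraries of quiescent B cells. The sources used here give no age or sex for any group, no strain for the tumor mice and no promoter for the transgene. All samples were enriched for B cells by removing other cells on magnetic beads, and the labels do not say whether the control libraries came from separate animals. Comparisons with B cells used 1 summed profile per tumor mouse (n = 8) against 5 activated or 4 quiescent libraries. They share the tumor mice, so their results are not independent of each other.

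Library totals were 14712392 to 21897188 estimated counts in MLN tumors, 13328866 to 20091467 in spleen tumors, 20194017 to 25045814 in activated cells and 15529618 to 24226060 in quiescent cells. Tumor libraries differed in what they held. The summed level of 9 plasma cell markers was 1267 to 28552 CPM in MLN tumors and 864 to 24133 CPM in spleen tumors, against 1247 to 1291 CPM in activated and 1924 to 2333 CPM in quiescent cells. In 4 tumor libraries (spleen 1610, 1612 and 1615, MLN 1611, by mouse number) it lay under the lowest quiescent library. JCHAIN alone had 1141 to 1511 CPM in quiescent cells, against 380 CPM in MLN 1611 and 574 CPM in spleen 1612. In both of these, TNFRSF17 and IRF4 also lay under every quiescent library, but SDC1, XBP1, PRDM1, MZB1 and DERL3 lay above. In spleen 1610, SDC1, XBP1, PRDM1, JCHAIN, TNFRSF17, SLAMF7, IRF4 and MZB1 all lay under every quiescent library, and DERL3 lay within their range. In spleen 1615, SDC1, JCHAIN, TNFRSF17 and IRF4 lay under and PRDM1, SLAMF7, MZB1 and DERL3 above, with XBP1 within the range. The low sums thus held mixed markers in MLN 1611, spleen 1612 and spleen 1615, and nearly all markers low in spleen 1610. The 10 macrophage markers with values summed to 369 to 2443 CPM in MLN tumors and 164 to 2212 CPM in spleen tumors, against 8.87 to 20.7 CPM in activated and 14.8 to 132 CPM in quiescent cells. The 5 division markers with values summed to 428 to 1410 CPM in MLN tumors, 609 to 1850 CPM in spleen tumors, 678 to 962 CPM in activated cells and 51.2 to 63.3 CPM in quiescent cells. Erythroid markers summed to 4.52 to 531 CPM in MLN and 62.9 to 2112 in spleen tumors, against at most 10.6 CPM in B cells. For neutrophil markers this was 40.4 to 621 and 94.6 to 1284 CPM, against at most 144 CPM. The quiescent sums, 129 to 144 CPM, were nearly all CEACAM8, at 124 to 140 CPM. Of the 6 neutrophil markers tested, CEACAM8 was the 1 that fell in tumors against quiescent cells, and 5 rose. T cell markers had 12.7 to 418 and 9.83 to 61.7 CPM, against at most 8.03 CPM. Stromal markers had 4.78 to 399 and 3.82 to 23.4 CPM, against at most 6.9 CPM. The part of all these differences in the results was not tested. The mean log2(CPM + 1) of 3 Y-linked genes was 0.22 to 0.37 in activated and 6.60 to 6.64 in quiescent libraries. Activation and the sex or source of the cells thus cannot be told apart. Tumor mice lay at 1.22 to 6.12, 5 of them high and 3 low. In bulk RNA, fewer cells of a type and less RNA per cell cannot be told apart.

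Sterol synthesis genes stood far lower in tumors than in activated B cells, and part of them stood moderately higher than in quiescent B cells. Against activated cells, 25 of the 33 genes fell and 2 rose in tumors at an adjusted p under 0.05 (edgeR quasi-likelihood test, Benjamini-Hochberg over all profiles), while 27.0% of all profiles fell, 36.1% rose and 63.2% did either. Against quiescent cells, 16 rose and 7 fell in tumors, while 36.8% of all profiles rose, 31.9% fell and 68.7% did either. These counts depended on the scaling and on single libraries: 17 rose and 4 fell with DESeq2 or upper-quartile factors, 11 rose and 5 fell with quantile normalization (median log2 change 0.09), and 14 rose and 4 fell without quiescent library 3 or without quiescent library 4. Of all 11633 profiles, 4756 rose and 3402 fell with DESeq2, 4956 and 2811 with upper-quartile factors, and 2816 and 4300 with quantile normalization. Without quiescent library 3 it was 3952 and 3427, and without quiescent library 4 it was 4027 and 3487. The median log2 change of the list was -1.39 against activated cells, beside 0.09 over all profiles, and 0.27 against quiescent cells, beside 0.08 over all profiles. The tumor libraries lay wholly under the activated libraries in 23 of the 33 genes, a pattern seen in 12.3% of all profiles, and wholly above them in 1, beside 12.1%. They lay wholly above the quiescent libraries in 7 genes, beside 13.3% of all profiles, and wholly under them in 1, beside 16.2%. With only the 3 mice of low Y-linked level against activated cells, 26 genes fell and 2 rose, beside 4100 and 3787 of all 11633 profiles. With only the 5 mice of high Y-linked level against quiescent cells, 18 rose and 5 fell, beside 4307 and 3728 of all 11633 profiles.

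**Figure D1:**
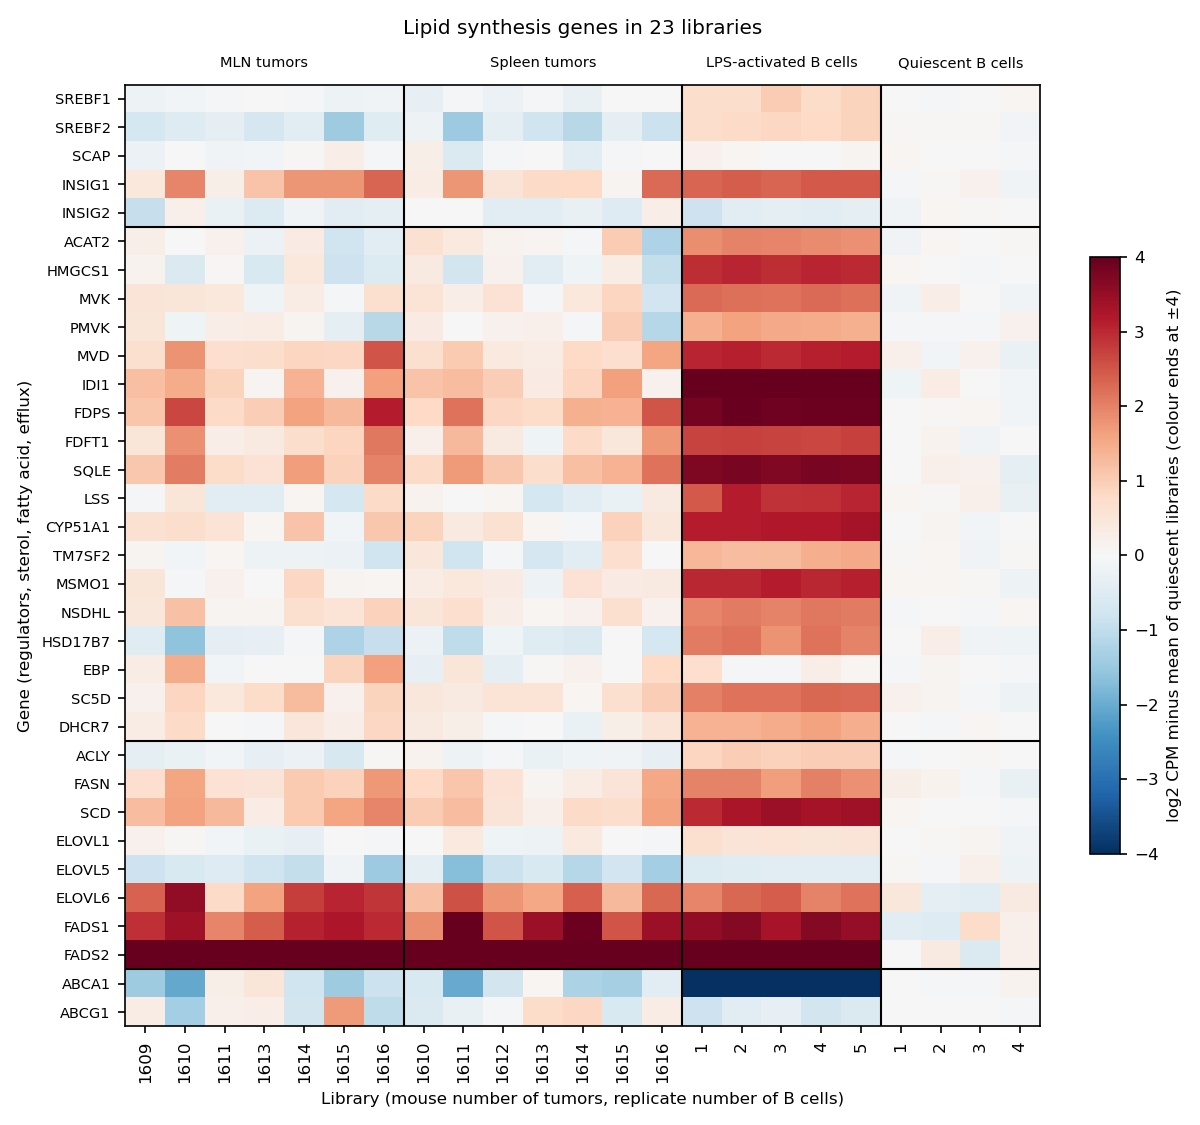
Rows are the 33 genes in the order regulators, sterol, fatty acid and efflux, columns are the 23 libraries, and colour is log2 CPM minus the mean of the 4 quiescent libraries, with colours ending at ±4. The 5 activated libraries are near uniform, whereas the 14 tumor libraries differ among themselves.

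Activated B cells were also set against quiescent B cells, where nearly the whole list was higher in activated cells. Of the 33 genes, 27 rose and 4 fell in activated cells, while 25.4% of all profiles rose, 34.1% fell and 59.5% did either. All of these 31 genes separated the activated from the quiescent libraries without overlap, a pattern seen upwards in 32.1% and downwards in 35.2% of all profiles. The 18 sterol genes had 17 rises, with a median log2 change of 2.39, and the 8 fatty acid genes had 7 rises and 1 fall. Both exporters fell, although the fall of ABCG1 was lost under 7 of 17 alternatives (adjusted p from 0.000143 to 0.077), which included leaving out activated library 1 or 4 or quiescent library 1, 2 or 3. SCAP and EBP, the sterol isomerase, did not pass the threshold, with log2 changes of 0.01 ± 0.08 (SE) and 0.15 ± 0.27 (SE).

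Among the regulators, the genes of both SREBP factors fell in tumors against either kind of B cell. SREBF2, the gene of the main sterol SREBP, had a lowest, median and highest level of 154, 286 and 317 CPM in MLN tumors and of 149, 237 and 354 CPM in spleen tumors. Activated cells had 667, 695, 722, 713 and 766 CPM of SREBF2, and quiescent cells had 420, 423, 420 and 378 CPM. All 14 tumor libraries lay under all 9 B cell libraries. In tumors, SREBF2 changed by -1.39 ± 0.09 log2 (SE, adjusted p = 2.59e-09) against activated cells and by -0.66 ± 0.09 log2 (SE, adjusted p = 1.69e-05) against quiescent cells.

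SREBF1, the gene of the factor that mostly drives fatty acid genes, had 90.9, 97.0 and 104 CPM as the lowest, median and highest level in MLN tumors and 83.9, 99.8 and 106 CPM in spleen tumors. Activated cells had 171, 171, 214, 176 and 195 CPM of it, and quiescent cells had 105, 102, 104 and 111 CPM. It varied least of the 33 genes over the 14 tumor libraries (SD 0.11 of log2(CPM + 1)), wholly under activated cells and overlapping quiescent cells. The log2 change in tumors was -0.93 ± 0.06 (SE, adjusted p = 1.23e-08) against activated cells and -0.18 ± 0.07 (SE, adjusted p = 0.0298) against quiescent cells. The second call was lost under 15 of 25 alternatives, with adjusted p from 0.0143 to 0.983.

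INSIG1, which holds SCAP in the endoplasmic reticulum and is itself a target of SREBP, fell against activated cells as the SREBF genes did and rose against quiescent cells, where they fell. It had 42.5, 122 and 180 CPM as the lowest, median and highest level in MLN tumors and 38.5, 60.4 and 174 CPM in spleen tumors, against 181, 192, 182, 197 and 197 CPM in activated cells and 34.3, 36.9, 40.2 and 32.5 CPM in quiescent cells. The tumors thus ran from the quiescent range to just under the activated range. INSIG1 changed in tumors by -1.15 ± 0.23 log2 (SE, adjusted p = 0.000428) against activated cells and by 1.19 ± 0.27 log2 (SE, adjusted p = 0.00117) against quiescent cells.

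INSIG2, the partner of INSIG1 with a like role, ran from 18.3 over a median of 26.8 to 40.3 CPM in MLN tumors and from 24.4 over 28.4 to 42.1 CPM in spleen tumors. It had 19.6, 25.9, 27.1, 25.9 and 26.6 CPM in activated cells, and 31.6, 36.7, 35.5 and 35.0 CPM in quiescent cells. Tumors overlapped both kinds of B cells. The log2 change in tumors was 0.20 ± 0.14 (SE, adjusted p = 0.218) against activated cells and -0.34 ± 0.15 (SE, adjusted p = 0.0483) against quiescent cells, and the second call was lost under 19 of 25 alternatives (adjusted p from 0.0207 to 0.372). SCAP, the escort of the SREBPs, passed no threshold, with log2 changes of -0.13 ± 0.07 (SE) in tumors against activated and -0.11 ± 0.08 (SE) against quiescent cells.

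**Figure D2:**
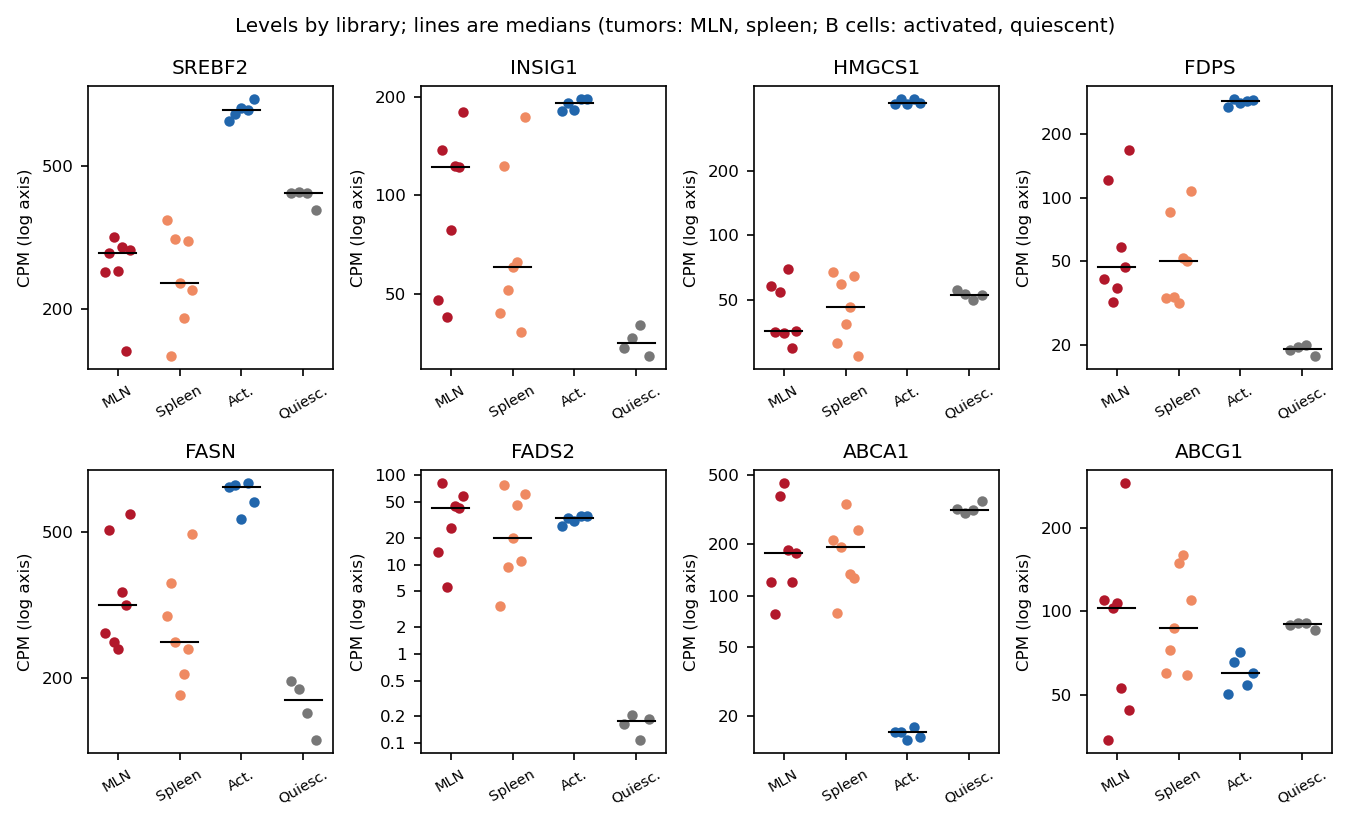
Each point is a library, its CPM is on a log axis, and black lines are medians of MLN tumors, spleen tumors, activated and quiescent B cells. HMGCS1 in tumors spans the quiescent libraries, FDPS lies between quiescent and activated cells, FADS2 reaches the activated level and ABCA1 runs opposite to the synthesis genes.

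Of the 18 sterol enzymes, 17 fell in tumors against activated cells, with a median log2 change of -1.91, and all 17 did so without overlap of the libraries. Of all profiles, 27.0% fell there and 12.3% lay wholly lower, with a median of 0.09. Against quiescent cells, 10 of the 18 rose and 1 fell, with a median of 0.36. Of all profiles, 36.8% rose and 31.9% fell there, with a median of 0.08. The enzymes differed in how far each stood from quiescent cells. EBP passed neither threshold, at 0.24 ± 0.23 log2 (SE) in tumors against activated and 0.38 ± 0.25 log2 (SE) against quiescent cells. It was called higher than in quiescent cells under 3 of 25 alternatives (adjusted p from 0.0115 to 0.544), and its change against activated cells was -0.54 log2 with the Y-linked level as a covariate, where it was not called.

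HMGCS1, which makes HMG-CoA at the entry of the mevalonate route, had 29.7, 35.8 and 69.9 CPM as the lowest, median and highest level in MLN tumors and 27.4, 46.5 and 67.6 CPM in spleen tumors. Activated cells had 412, 434, 411, 432 and 414 CPM and quiescent cells had 55.4, 53.2, 49.9 and 52.4 CPM. Tumor libraries lay on both sides of the quiescent ones and far under the activated ones. The log2 change of HMGCS1 was -3.07 ± 0.12 (SE, adjusted p = 3.08e-11) in tumors against activated cells and -0.15 ± 0.13 (SE, adjusted p = 0.339) against quiescent cells.

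LSS, which closes the sterol ring by making lanosterol, took the same place. Its lowest, median and highest level was 17.4, 26.6 and 48.1 CPM in MLN tumors and 17.4, 27.9 and 35.9 CPM in spleen tumors, against 153, 249, 209, 213 and 232 CPM in activated cells and 29.7, 28.9, 32.4 and 22.8 CPM in quiescent cells. The tumor libraries surrounded the quiescent ones and stayed under the activated ones. LSS changed in tumors by -2.90 ± 0.18 log2 (SE, adjusted p = 3.05e-09) against activated cells and by -0.07 ± 0.19 log2 (SE, adjusted p = 0.766) against quiescent cells.

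IDI1, the isomerase that makes dimethylallyl diphosphate, had 33.9, 72.6 and 97.3 CPM as the lowest, median and highest level in MLN tumors and 35.7, 61.6 and 97.6 CPM in spleen tumors. Activated cells had 592, 574, 557, 572 and 537 CPM of IDI1, and quiescent cells had 27.8, 38.5, 31.0 and 29.3 CPM. Most tumor libraries lay above the quiescent ones, with overlap at the low end. IDI1 changed in tumors by -3.09 ± 0.14 log2 (SE, adjusted p = 6.82e-11) against activated cells and by 1.01 ± 0.15 log2 (SE, adjusted p = 4.21e-05) against quiescent cells.

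FDPS, which makes farnesyl diphosphate for both sterols and protein prenylation, had 32.1, 46.9 and 169 CPM as the lowest, median and highest level in MLN tumors and 31.5, 50.3 and 108 CPM in spleen tumors. Activated cells had 271, 295, 282, 289 and 291 CPM and quiescent cells had 18.9, 19.6, 20.1 and 17.8 CPM. Every tumor library lay above the quiescent and under the activated libraries. The log2 change of FDPS in tumors was -2.22 ± 0.27 (SE, adjusted p = 4.06e-06) against activated cells, and -2.88 with only the 3 tumor mice of low Y-linked level. Against quiescent cells it was 1.62 ± 0.32 (SE, adjusted p = 0.000431).

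SQLE, the squalene epoxidase, had 23.5, 33.5 and 64.9 CPM as the lowest, median and highest level in MLN tumors and 25.7, 36.8 and 71.2 CPM in spleen tumors. In activated cells it had 212, 220, 208, 219 and 215 CPM, and in quiescent cells 15.6, 18.3, 17.9 and 12.3 CPM. Here too no tumor library overlapped either kind of B cell. SQLE changed in tumors by -2.41 ± 0.17 log2 (SE, adjusted p = 1.64e-08) against activated cells and by 1.26 ± 0.20 log2 (SE, adjusted p = 6.5e-05) against quiescent cells.

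The other sterol genes fell in tumors against activated cells, with log2 changes from -1.18 for DHCR7, which makes cholesterol from its last precursor, to -2.72 for MSMO1, the sterol methyl oxidase. Against quiescent cells the rises among them ran from 0.27 log2 for MSMO1 to 0.99 log2 for MVD, the mevalonate diphosphate decarboxylase, and the 1 fall was that of HSD17B7, a sterol ketoreductase, at -0.52 ± 0.12 log2 (SE, adjusted p = 0.00101). The MSMO1 rise was lost under 15 of 25 alternatives (adjusted p from 0.00473 to 0.566) and that of MVK, the mevalonate kinase, under 8 (adjusted p from 0.00218 to 0.209). Those of MVD, FDFT1 and NSDHL were lost under quantile normalization with limma (adjusted p = 0.152, 0.0808 and 0.2). ACAT2, PMVK, TM7SF2 and DHCR7 did not pass the threshold against quiescent cells, with log2 changes of 0.10, 0.11, -0.11 and 0.22. Under quantile normalization with limma, TM7SF2 was called lower (-0.92 log2, adjusted p = 0.00111). Without mouse 1616, PMVK was called higher with edgeR (0.22 log2, adjusted p = 0.0465). DHCR7 was called higher under 5 of 25 alternatives, DESeq2 among them (adjusted p from 0.00541 to 0.584).

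**Figure D3:**
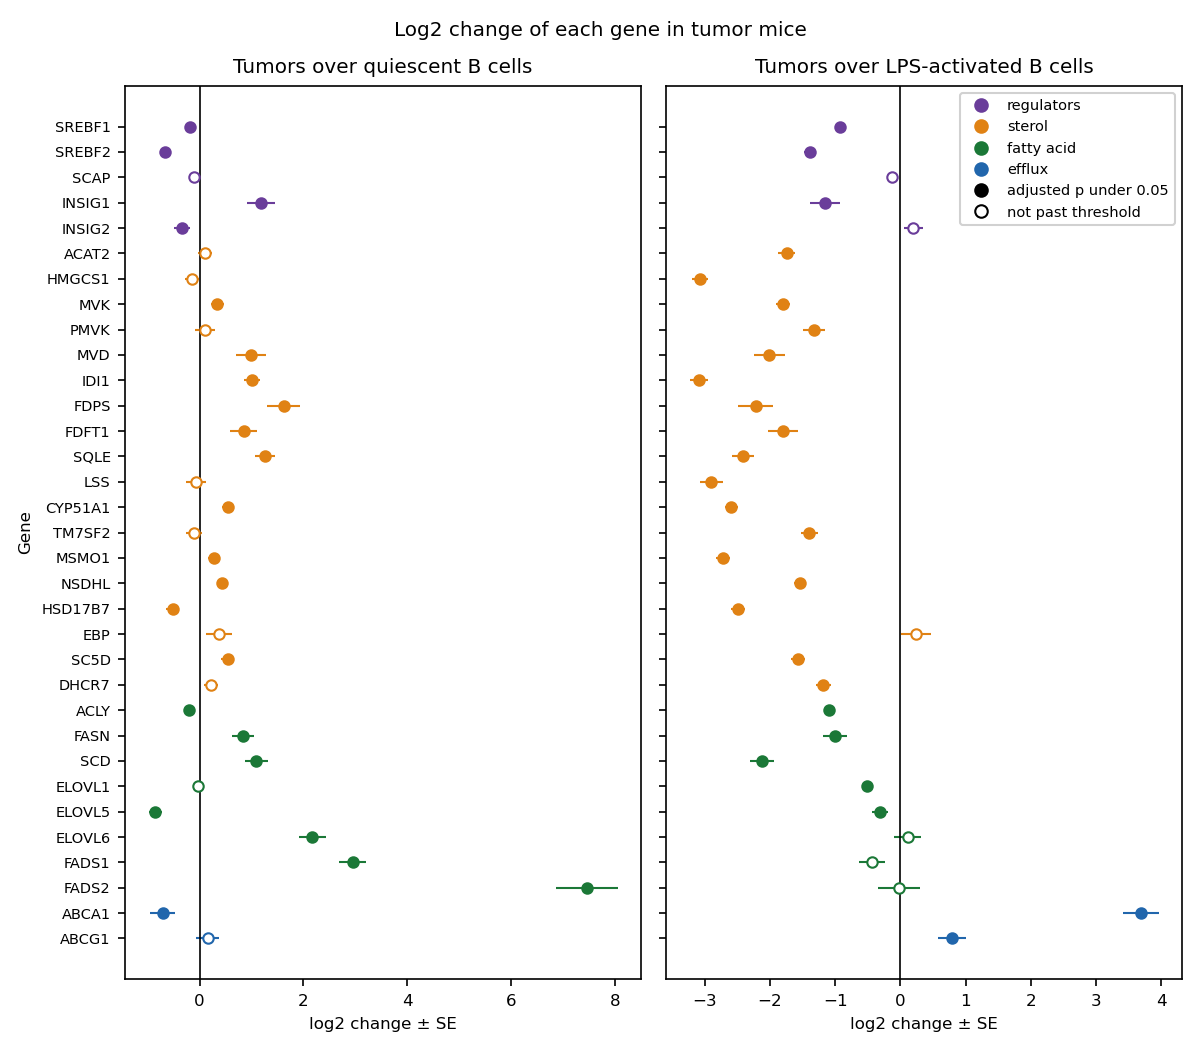
Points are log2 changes with their SE in 8 tumor mice over quiescent (left) and over activated B cells (right), filled where the adjusted p was under 0.05. Sterol genes lie left of 0 in the right panel except EBP, and FADS2, FADS1 and ELOVL6 are far right in the left panel and near 0 in the right one.

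Promoters of sterol and fatty acid genes are shown because these genes moved together between quiescent and activated cells, and that of Abca1 because it moved the other way. RefSeq promoters of build GRCm38.p6, from 250 bases before to 50 bases after the start, were found for 28 of the 34 genes, 37 promoters in all. The files used build GRCm39, and no coordinate of theirs was used. Motifs were searched on both strands as TCACNCCAC (a form of the sterol response element), CACGTG (an E-box, which SREBP and MYC can both bind) and CCAAT (or ATTGG on the other strand, the box of NF-Y). Capitals mark the matches, and all sequences run 5′ to 3′ on the gene's strand. The loci are chr13:119690101-119690400, plus strand for Hmgcs1, chr13:8885356-8885655, plus strand for Idi1, chr10:76531355-76531654, plus strand for Lss, chr5:28071162-28071461, plus strand for Insig1, chr11:120824498-120824797, minus strand for Fasn and chr4:53159846-53160145, minus strand for Abca1.
Hmgcs1: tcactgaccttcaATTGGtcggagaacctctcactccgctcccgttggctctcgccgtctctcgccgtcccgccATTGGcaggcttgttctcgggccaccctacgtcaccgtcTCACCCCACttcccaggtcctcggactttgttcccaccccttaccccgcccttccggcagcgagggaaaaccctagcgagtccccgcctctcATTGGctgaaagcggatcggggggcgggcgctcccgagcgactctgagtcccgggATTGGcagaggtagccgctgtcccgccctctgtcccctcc
Idi1: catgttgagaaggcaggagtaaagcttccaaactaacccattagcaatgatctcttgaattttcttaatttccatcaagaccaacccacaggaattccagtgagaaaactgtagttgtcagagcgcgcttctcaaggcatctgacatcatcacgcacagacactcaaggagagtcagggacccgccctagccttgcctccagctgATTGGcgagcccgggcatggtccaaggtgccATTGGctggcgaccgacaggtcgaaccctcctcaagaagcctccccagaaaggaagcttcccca
Lss: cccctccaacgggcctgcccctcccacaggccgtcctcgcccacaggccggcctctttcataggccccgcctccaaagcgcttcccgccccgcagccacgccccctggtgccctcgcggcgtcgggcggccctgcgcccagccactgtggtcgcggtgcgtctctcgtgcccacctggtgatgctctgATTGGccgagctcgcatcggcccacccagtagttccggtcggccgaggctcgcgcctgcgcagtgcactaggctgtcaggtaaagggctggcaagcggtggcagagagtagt
Insig1: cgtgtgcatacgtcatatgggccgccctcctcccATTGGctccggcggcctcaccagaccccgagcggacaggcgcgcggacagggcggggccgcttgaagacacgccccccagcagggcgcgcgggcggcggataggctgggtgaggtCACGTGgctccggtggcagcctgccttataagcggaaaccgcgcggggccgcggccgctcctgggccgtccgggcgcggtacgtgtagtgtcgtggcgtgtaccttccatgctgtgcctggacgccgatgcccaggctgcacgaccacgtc
Fasn: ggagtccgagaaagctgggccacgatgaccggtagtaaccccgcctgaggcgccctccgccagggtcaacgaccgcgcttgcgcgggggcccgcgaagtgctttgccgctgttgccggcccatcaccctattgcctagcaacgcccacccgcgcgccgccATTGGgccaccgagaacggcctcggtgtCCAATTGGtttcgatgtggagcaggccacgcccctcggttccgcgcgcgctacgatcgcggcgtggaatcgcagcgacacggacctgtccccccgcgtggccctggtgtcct
Abca1: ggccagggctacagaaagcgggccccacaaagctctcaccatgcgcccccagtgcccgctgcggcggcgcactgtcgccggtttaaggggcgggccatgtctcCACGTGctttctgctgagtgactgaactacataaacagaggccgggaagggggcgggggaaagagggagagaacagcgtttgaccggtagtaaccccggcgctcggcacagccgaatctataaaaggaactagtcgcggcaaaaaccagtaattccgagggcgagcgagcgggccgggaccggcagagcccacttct

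In Hmgcs1 the sterol response element form began 137 bases before the start, with CCAAT boxes at 237, 176 and 45 bases before it. This form was found in 1 of the 28 genes and in 1.24% of all 32851 promoters in the table. Insig1 and Abca1 each held a CACGTG, beginning 101 and 147 bases before the start, and 7 of the 28 genes held one, beside 7.15% of all promoters. CCAAT was found in 22 of the 28 genes and in 37.4% of all promoters, with 2 matches in Idi1, 1 in Lss and 3 in Fasn, 2 of which overlap. The share of genes counts a gene once over its promoters, whereas the share of all counts each promoter. Counted by promoter, the sterol response element form was in 1 of the 37, CACGTG in 8 and CCAAT in 23. A match is a run of letters and no measured binding site.

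In the fatty acid branch, FASN, SCD and ACLY stood well under activated cells, whereas the desaturases FADS1 and FADS2 and the elongase ELOVL6 did not pass the threshold there and rose against quiescent cells. For FADS1 the first of these turned on the settings, as it was called lower than in activated cells under 8 of 26 alternatives. Of 8 genes, 5 fell and 0 rose in tumors against activated cells, with a median log2 change of -0.48. Of all profiles, 27.0% fell and 36.1% rose there. Against quiescent cells 5 of the 8 rose and 2 fell, with a median of 0.96, while 36.8% of all profiles rose and 31.9% fell. The 5 rises and this median include FADS2, which passed the filter only through tumor and activated cells.

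FASN had a lowest, median and highest level of 241, 317 and 561 CPM in MLN tumors and of 180, 251 and 494 CPM in spleen tumors. Activated cells had 666, 671, 542, 682 and 603 CPM and quiescent cells had 196, 187, 161 and 136 CPM. The highest tumor library reached into the activated range and the lowest into the quiescent range. FASN changed in tumors by -1.0 ± 0.18 log2 (SE, adjusted p = 0.000169) against activated cells and by 0.83 ± 0.21 log2 (SE, adjusted p = 0.00209) against quiescent cells.

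SCD, the desaturase that makes oleate from stearate, had 130, 261 and 409 CPM as the lowest, median and highest level in MLN tumors and 122, 182 and 322 CPM in spleen tumors. Activated cells had 837, 1019, 1138, 1060 and 1108 CPM of SCD, and quiescent cells had 113, 104, 106 and 102 CPM. No tumor library overlapped either. The log2 change in tumors was -2.12 ± 0.19 (SE, adjusted p = 1.86e-07) against activated cells, and -2.79 with only the 3 tumor mice of low Y-linked level. Against quiescent cells SCD changed by 1.09 ± 0.22 log2 (SE, adjusted p = 0.000468).

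ACLY, which supplies cytosolic acetyl-CoA to both routes, had 188, 244 and 304 CPM as the lowest, median and highest level in MLN tumors and 233, 259 and 324 CPM in spleen tumors, against 531, 571, 556, 574 and 578 CPM in activated cells and 281, 289, 299 and 297 CPM in quiescent cells. Tumors lay under activated cells and around quiescent cells. ACLY changed in tumors by -1.10 ± 0.07 log2 (SE, adjusted p = 5.41e-09) against activated cells and by -0.21 ± 0.08 log2 (SE, adjusted p = 0.0218) against quiescent cells, where the call was lost under 8 of 25 alternatives (adjusted p from 0.0111 to 0.413).

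FADS2, the delta-6 desaturase of polyunsaturated fatty acids, had 5.65, 43.6 and 82.5 CPM as the lowest, median and highest level in MLN tumors and 3.42, 20.0 and 77.6 CPM in spleen tumors. Activated cells had 27.1, 33.2, 30.8, 35.4 and 35.0 CPM, and quiescent cells had 0.164, 0.206, 0.109 and 0.187 CPM. Quiescent cells held only 12.9 estimated counts of FADS2 over their 4 libraries, and every tumor library was above them. FADS2 reached 1 CPM in 19 libraries and in no quiescent one, so it passed the filter only through tumor and activated cells. The size and p of its rise over quiescent cells, which is counted above among the rises, are therefore a description only. The log2 change in tumors was -0.02 ± 0.32 (SE, adjusted p = 0.956) against activated cells and 7.46 ± 0.59 (SE, adjusted p = 1.22e-07) against quiescent cells. On the log2(CPM + pseudocount) scale the second value was 4.60 with a pseudocount of 1 and 2.67 with 5, since it turns on values near 0.

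FADS1, the delta-5 desaturase that acts after FADS2, had 13.7, 27.9 and 37.2 CPM as the lowest, median and highest level in MLN tumors and 12.9, 38.2 and 68.1 CPM in spleen tumors. Activated cells had 41.3, 44.9, 35.0, 45.1 and 40.2 CPM and quiescent cells had 2.67, 2.47, 5.87 and 4.11 CPM. Tumor libraries were above all quiescent ones and overlapped activated ones. FADS1 changed in tumors by -0.44 ± 0.20 log2 (SE, adjusted p = 0.0627) against activated cells and by 2.95 ± 0.26 log2 (SE, adjusted p = 2.68e-07) against quiescent cells. Adjusted p against activated cells ran from 0.0139 to 0.727 over the alternatives, with 0.0478, 0.0191 and 0.0182 without mouse 1611, 1614 and 1616. The rise against quiescent cells was 1.97 log2 with a pseudocount of 5 and 2.21 log2 with quantile normalization.

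ELOVL6, which lengthens palmitate to stearate, had 4.07, 16.3 and 27.7 CPM as the lowest, median and highest level in MLN tumors and 5.36, 8.10 and 14 CPM in spleen tumors. Activated cells had 9.27, 11.7, 12.8, 9.33 and 10.6 CPM and quiescent cells had 3.22, 1.85, 1.74 and 3.05 CPM. Again the tumors overlapped activated cells only. ELOVL6 changed in tumors by 0.11 ± 0.21 log2 (SE, adjusted p = 0.679) against activated cells and by 2.17 ± 0.26 log2 (SE, adjusted p = 4.51e-06) against quiescent cells, and the second value was 1.11 with a pseudocount of 5 and 0.99 with quantile normalization. ELOVL5, an elongase of polyunsaturated fatty acids, changed against quiescent cells by -0.85 ± 0.13 log2 (SE, adjusted p = 3.18e-05), and ELOVL1, an elongase of very long chains, changed against activated cells by -0.51 ± 0.07 log2 (SE, adjusted p = 1.33e-05). The fall of ELOVL5 against activated cells, -0.31 log2 (adjusted p = 0.0329), was lost under 14 of 26 alternatives (adjusted p from 0.000933 to 0.208).

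The exporters ran opposite to the synthesis genes between tumors and activated cells. ABCA1, which loads cholesterol onto apolipoprotein A-I, had 78.0, 177 and 450 CPM as the lowest, median and highest level in MLN tumors and 79.3, 192 and 338 CPM in spleen tumors. Activated cells had 16.1, 16.2, 14.6, 17.2 and 15.1 CPM of ABCA1 and quiescent cells had 316, 302, 312 and 352 CPM. Tumors lay above all activated libraries and overlapped the quiescent ones. ABCA1 changed in tumors by 3.69 ± 0.27 log2 (SE, adjusted p = 2.19e-08) against activated cells and by -0.71 ± 0.24 log2 (SE, adjusted p = 0.0144) against quiescent cells. The second call was lost with quantile normalization, with MLN tumors alone and with 14 independent libraries (adjusted p = 0.0682, 0.171 and 0.0852).

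ABCG1, which exports cholesterol to high-density lipoprotein, had 34.5, 103 and 291 CPM as the lowest, median and highest level in MLN tumors and 58.8, 87.3 and 160 CPM in spleen tumors, against 50.4, 65.7, 71.4, 54.2 and 60.2 CPM in activated cells and 89.3, 91.0, 91.1 and 85.8 CPM in quiescent cells. Tumors overlapped both. The log2 change of ABCG1 in tumors was 0.79 ± 0.21 (SE, adjusted p = 0.00324) against activated cells and 0.16 ± 0.22 (SE, adjusted p = 0.532) against quiescent cells. The rise against activated cells was lost with MLN tumors alone and with 14 independent libraries (adjusted p = 0.0953 and 0.0694). Macrophages express both exporters, and all 10 macrophage markers tested rose in tumors against both kinds of B cells, with median log2 changes of 9.76 against activated and 3.64 against quiescent cells. Their part in the exporter levels was not tested. The macrophage markers summed to at most 20.7 CPM in the 5 activated libraries and to 14.8 to 132 CPM in the 4 quiescent ones. Quiescent library 1, with a sum of 14.8 CPM, had 316 CPM of ABCA1. MLN 1615, with the largest sum of all libraries at 2443 CPM, had the highest ABCG1 at 291 CPM and 120 CPM of ABCA1. These are values of single libraries, and no cause is read from them.

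Neighbouring pathways were read from 6 further gene lists. Their counts are to be read beside all profiles, of which 36.1% rose and 27.0% fell against activated cells and 36.8% rose and 31.9% fell against quiescent cells, and nothing particular to a list is read from them. Of 9 genes of SREBP processing and sterol feedback, 2 rose and 3 fell in tumors against activated cells, and 1 rose and 3 fell against quiescent cells. The sterol carrier STARD4 changed in tumors against activated cells by -2.35 ± 0.13 log2 (SE, adjusted p = 4.25e-10), and TMEM97, the sigma-2 receptor, rose against quiescent cells by 2.78 ± 0.32 log2 (SE, adjusted p = 2.74e-06). Of 12 genes of the isoprenoid branch, which uses farnesyl and geranylgeranyl diphosphate, 1 rose and 4 fell against activated cells, and 4 rose and 5 fell against quiescent cells. GGPS1, the geranylgeranyl diphosphate synthase, changed against quiescent cells by -0.86 log2 (adjusted p = 1.84e-06), while FDPS one step before it rose.

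Of 19 genes of fatty acid activation and elongation, 5 rose and 4 fell in tumors against activated cells, beside 36.1% and 27.0% of all profiles. Against quiescent cells 9 rose and 2 fell, beside 36.8% and 31.9%. ACSL3, an acyl-CoA synthetase, changed against activated cells by -2.10 ± 0.10 log2 (SE, adjusted p = 2.02e-10). FADS3, a desaturase next to FADS1 and FADS2 in the genome, ran from 1.81 to 120 CPM in tumors against at most 1.41 CPM in activated and 0.412 CPM in quiescent cells. Of 16 genes of fatty acid oxidation, 5 rose and 4 fell against activated cells, and 9 rose and 1 fell against quiescent cells. CPT1A, the gate of fatty acids into mitochondria, rose against activated cells by 2.31 ± 0.14 log2 (SE, adjusted p = 3.52e-09).

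Of 7 genes tested around the liver X receptors, 5 rose and 1 fell in tumors against activated cells, and 3 rose and 3 fell against quiescent cells. The receptor gene NR1H3, which macrophages express, had 2.03 to 40.9 CPM in tumors, against 0.0 to 0.125 CPM in activated and 0.436 to 2.49 CPM in quiescent cells. It passed the filter through the tumors, and activated cells held 8.6 estimated counts of it in all, so the size of its called rise against them is not given. Of 11 genes of esterification and storage, 6 rose and 3 fell in each of the comparisons. PLIN2, which coats lipid droplets, had 13.1 to 325 CPM in tumors, against 1.58 to 2.52 CPM in activated and 13.7 to 16.9 CPM in quiescent cells, and SOAT2, which esterifies cholesterol, changed against activated cells by -1.65 ± 0.34 log2 (SE, adjusted p = 0.000473).

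MLN and spleen tumors did not differ in any of the 33 genes at the threshold, and 0.0% of all profiles were called. Libraries of the tissues overlapped in every one of the 33 genes, while 0.0086% of all profiles were wholly higher and 0.0172% wholly lower in MLN tumors. At an unadjusted p under 0.05, edgeR gave 0 of the 33 genes and 511 of all profiles. DESeq2 called 0 of the 33, with 16 of all profiles higher and 4 lower in MLN tumors after adjustment. Log2 differences of MLN over spleen ran from -0.45 for FADS1 to 0.67 for ELOVL6. The intervals of 2 SE were wide for some genes, from -1.11 to 1.57 for FADS2 and from -0.42 to 1.18 for INSIG1, and narrow for SREBF1, from -0.14 to 0.18. Within the 6 mice that gave both tumors, SCD was higher in the MLN tumor in 6 of 6, and INSIG1, MVD, FASN and ELOVL6 in 5 of 6. ACAT2, MVK, SQLE, MSMO1, ACLY, ELOVL1, FADS1 and ABCG1 were lower in the MLN tumor in 4 of 6. The genes higher in the MLN tumor numbered 14 of 33 in mice 1611 and 1615 and 25 of 33 in mouse 1614. Such counts were not made over all profiles, so no lean to either tissue is read from them. Mice differed in direction. On the scale of log2(CPM + 1), the MLN minus spleen difference of FADS2 was 4.24 in mouse 1610 and -3.56 in mouse 1611.

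Among the 14 tumor libraries, the genes did not vary as 1 block. The median SD of log2(CPM + 1) over these libraries was 0.46 for the 33 genes, beside 0.45 over all profiles. For the 33 genes the same median was 0.07 in activated and 0.09 in quiescent cells. FADS2 varied most (SD 1.38 log2), followed by ABCG1, INSIG1, ABCA1 and FDPS (SD 0.81, 0.79, 0.78 and 0.78 log2).

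The 3 tumor libraries with the largest plasma cell marker sums, MLN 1616, spleen 1616 and MLN 1610, came from 2 mice and had sums of 28552, 24133 and 20220 CPM. They were singled out after their values were seen, so what follows is a description. They were the 3 highest of 14 in 9 of the 33 genes (INSIG1, MVD, FDPS, FDFT1, SQLE, LSS, DHCR7, FASN and SCD), a pattern that 10.9% of all profiles showed, and the 3 lowest in 0 of the 33, against 4.71% of all profiles. FDPS in them was 169, 108 and 121 CPM and INSIG1 was 180, 174 and 138 CPM.

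Other genes of the route did not take that order. HMGCS1 in the same libraries was 35.8, 27.4 and 35.2 CPM, at places 9, 14 and 10 from the top. SREBF2 stood at places 6, 11 and 7. The 4 tumor libraries with the smallest plasma cell marker sums (spleen 1610, 1615 and 1612 and MLN 1611) had 67.6, 64.6, 59.2 and 54.5 CPM of HMGCS1, all above the median of the tumor libraries, and 3.42, 10.9, 9.32 and 5.65 CPM of FADS2, the 4 lowest of the 14. The same 4 libraries had the 4 largest B cell marker sums, at 10286, 8833, 8610 and 8103 CPM.

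**Figure D4:**
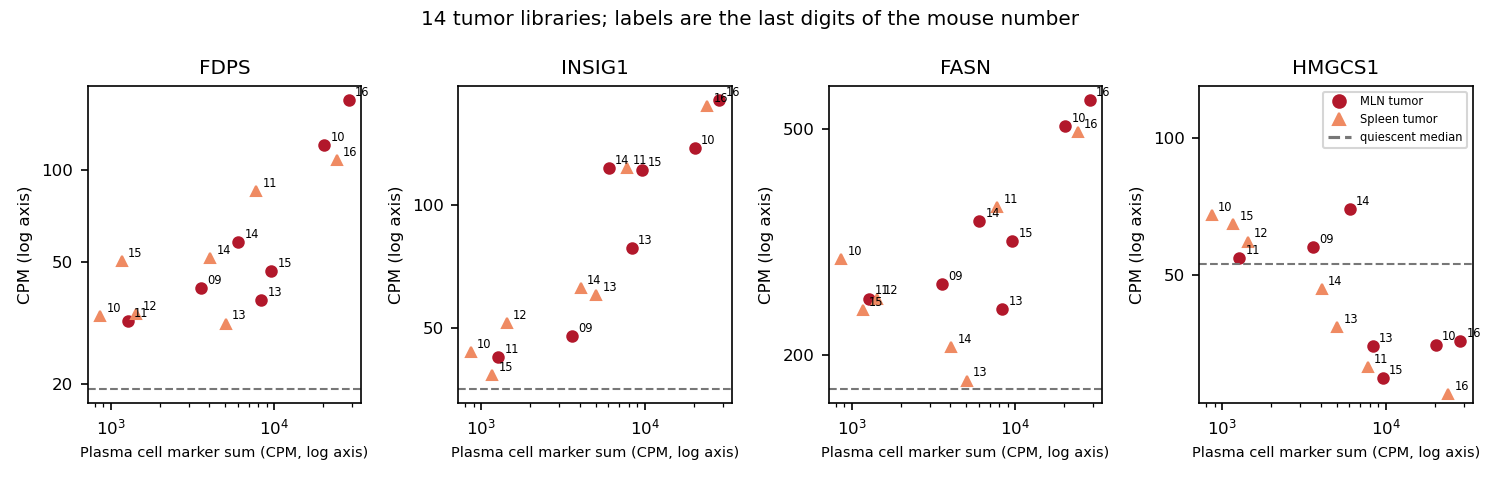
Each point is a tumor library (circles MLN, triangles spleen), with the summed CPM of 9 plasma cell markers on the x axis and the CPM of FDPS, INSIG1, FASN or HMGCS1 on the y axis, both logarithmic, and a dashed line at the quiescent median. MLN 1616, spleen 1616 and MLN 1610 are top right for FDPS, INSIG1 and FASN, and low for HMGCS1.

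Whether the SREBF genes and their targets varied together was read over the 8 tumor mice. SREBF2 was set against the 18 sterol genes and SREBF1 against the 8 fatty acid genes, 26 relations in all. Pearson's r with SREBF2 had a median of 0.20 and ran from -0.16 to 0.64, and r with SREBF1 had a median of 0.04 and ran from -0.57 to 0.51. None passed after adjustment, the lowest adjusted permutation p being 0.947, and 0 had an unadjusted p under 0.05. The highest r with SREBF2 was that of LSS, with r = 0.64 (exact permutation p = 0.0926) and Spearman's rho = 0.74 (exact permutation p = 0.0458, adjusted p = 0.902). Without the 2 mice farthest from the SREBF2 median, 1610 and 1612, r with SREBF2 ran from -0.83 for HSD17B7 to 0.85 for LSS. For HMGCS1 it was 0.28 over 8 mice and -0.51 without mice 1610 and 1612, so its sign rested on them. Without mice 1610 and 1616, r with SREBF1 ran from -0.58 for ELOVL6 to 0.48 for FADS2.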

How the data were processed

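The deposited table gives estimated counts per gene and library, a unit set from the values, which were not whole and summed to different totals, although its name speaks of TPM. The submitters' processing notes name Trim Galore 0.4.0, DESeq2 and build GRCm39. No source used here gives the quantifier or how human symbols were put on mouse genes.

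Of 61651 entries, 21282 had values and 17047 were above 0 in some library. Merging entries that were identical in all libraries left 15881 profiles, and 5463 blank names had no values. For a name on several profiles the highest mean over libraries decided. Counts were rounded and tested with edgeR 4.0.16 (quasi-likelihood, TMM factors, 2-sided) in R 4.3.3, over profiles at 1 CPM or more in 4 libraries. The SE is approximate, taken as the size of the log2 change over the root of the F statistic. P-values were adjusted by Benjamini-Hochberg over all 11633 profiles, with a threshold of 0.05. The scripts were tested on simulated data. Alternatives used DESeq2 1.42.0, limma 3.58.1, other scalings and filters, tissues alone, and samples left out.

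The mouse was the replicate: counts of tumors of 1 mouse were summed, and MLN and spleen tumors were compared over 14 libraries. The series' design text says that equal numbers mark 1 animal. Deviations of the 6 pairs from their tissue means correlated at -0.21, -0.36, 0.4, -0.3, -0.49 and 0.72. P-values against control libraries may measure technical spread. Depth limits FADS2 in quiescent cells most.

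The genes and lists were chosen with earlier results of these data known. Values by library are given for FASN, SREBF1, SREBF2, INSIG1 and, in each branch, up to 3 called genes with the largest log2 change against quiescent and up to 3 against activated cells. Of each other list, the called genes with the largest rise and fall may be named.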

Additional observations from a re-analysis of the deposited data

Results flagged for a closer look

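In 6 of 132 groups of values (33 genes in 4 groups of libraries), 1 library stood apart from the rest by Dixon's test, where chance gives about 1 in 20. SREBF2 was lowest in MLN tumors at 154 CPM in mouse 1615, with the next library at 254 CPM. In quiescent cells SREBF2 was lowest at 378 CPM in library 4, with the next at 420 CPM. INSIG2 was lowest in activated cells at 19.6 CPM in library 1, with the next at 25.9 CPM. MSMO1 was lowest in spleen tumors at 18.3 CPM in mouse 1613, with the next at 25.9 CPM. In quiescent cells MSMO1 was lowest at 18.2 CPM in library 4, with the next at 21.7 CPM. ABCG1 was highest in MLN tumors at 291 CPM in mouse 1615, with the next at 110 CPM.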

How the results depend on the processing

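The fall of the list against activated cells and its rise in activated against quiescent cells held their counts within 1.5 times under every alternative run. The smaller differences between tumors and quiescent cells did not. Genes higher in tumors than in quiescent cells numbered 16, and 8 where at least a 2-fold change was asked for. Of all 11633 profiles 4282 were higher, and 2781 at 2-fold, so the 8 are near the share of all profiles. Genes lower there numbered 7, and 4 with DESeq2, with upper-quartile factors, with a filter in 12 libraries and with MLN or spleen tumors alone, 3 with the 14 tumor libraries as independent, and 0 at 2-fold or more. Over all profiles 3712 were lower, 2513 to 3415 under these alternatives, and 791 at 2-fold. Leaving out 1 sample at a time gave 14 to 17 higher and 4 to 7 lower genes, with 4 lower without quiescent library 3 and without quiescent library 4. Over all profiles this gave 3915 to 4424 higher and 3411 to 3940 lower. Genes higher than in activated cells numbered 2, and 1 with MLN tumors alone, with 14 independent libraries and at 2-fold. Over all profiles 4205 were higher, and 3804, 3555 and 2831 under these 3 settings. Genes lower in activated than in quiescent cells numbered 4, and 1 at 2-fold, beside 3963 and 1888 of all 11633 profiles. The log2 change against quiescent cells turned round under quantile normalization for MVK (-0.35, adjusted p = 0.0786, against 0.34) and ACLY (0.09, adjusted p = 0.232, against -0.21), and the cause was not tested. The share of rises among called genes of the list against quiescent cells was 69.6%, and 81.0% with DESeq2 and with upper-quartile factors. Over all profiles it was 53.6% there, and 63.8% with upper-quartile factors, 39.6% with quantile normalization and 77.9% at 2-fold, and 57.2% against activated cells, with 37.9% under quantile normalization and 84.3% at 2-fold. The median over all profiles shifted against quiescent cells to 0.22 log2 with upper-quartile factors and to -0.11 with quantile normalization, against 0.08. Replicate numbers of activated and quiescent cells mark no shared source in the labels, and their deviations correlated at -0.02 to 0. With these numbers as a replicate block, 27 genes of the list rose and 4 fell, as without it, beside 4129 and 4297 of all 11633 profiles. With the mouse as a replicate block, 0 genes of the list differed between MLN and spleen tumors. Without mouse 1611, 2 genes of the list had an unadjusted p under 0.05 between MLN and spleen tumors.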
